A study of Mus musculus with 10 samples.

Results

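The 35 genes described here mark endothelial cells, the cells that line blood and lymph vessels. They were picked by symbol, as known endothelial genes, from the 32889 genes of an RNA sequencing table of mouse brown adipose tissue, the fat depot that burns fuel for heat. All 35 were found in that table. The table holds 10 libraries of total RNA from wild-type C57BL/6J mice: 3 libraries labelled obesity-prone, from mice on a high-fat diet, 3 labelled obesity-resistant, also on a high-fat diet, and 4 control libraries from mice on regular chow. Obesity-prone and obesity-resistant libraries therefore differ from control in diet as well as in that label. The labels give neither the age of the mice nor the weeks of diet, and they do not say how a mouse was called prone or resistant. Whether each library is a separate mouse is not stated either, and the p-values below measure only the spread between libraries, which may be technical.

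Endothelial cells hold to each other through junction proteins such as VE-cadherin, and they carry receptors for the growth factors, hormones and lipids that set vessel growth and tone. Neighbouring endothelial cells signal through Notch: the ligand DLL4 on one cell binds NOTCH1 or NOTCH4 on the next, and the cleaved receptor then turns on genes of the HEY family. In sprouting vessels this signal is known to hold back the cell next to a leading tip cell, and it also takes part in making arteries. Brown adipose tissue has a dense capillary bed that delivers oxygen and fuel for heat production. Lymphatic vessels form a separate set with markers of their own, among them PROX1 and VEGFR3.

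In brief, obesity-prone libraries had more RNA of Dll4, Notch4, Flt4, Ramp2 and Mmrn2 than control libraries, while the genes that mark all endothelial cells, such as Cdh5 and Pecam1, were not called. That contrast turned in part on 1 library: without control replicate 4, Pecam1 was called too (adjusted p = 0.0262 by edgeR) and Cdh5 was not. Dll4 was 2.99-fold and Notch4 2.10-fold the control level. Of the 23 settings tried, Dll4 was called in 23 and Notch4 in 22. The other calls held less often, Flt4 in 16, Mmrn2 in 11 and Ramp2 in 9. Obesity-resistant libraries had 2.39-fold the control level of Dll4 and 1.81-fold that of Notch4, and neither passed the threshold there. A gene is said to be called, to rise or to fall when its p-value, from edgeR's quasi-likelihood test with Benjamini-Hochberg adjustment over all 19676 genes tested, was below 0.05. Levels are given in CPM, read counts scaled to a common library size, and changes as log2 fold changes with the standard error (SE) of the fit.

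Each library held 35583997 to 37327770 counts in all, and each of the 35 genes passed the filter on low counts. The brown fat marker Ucp1, which uncouples respiration to make heat, was high in all libraries, at 2882 to 8461 CPM in obesity-prone, 8653 to 9753 in obesity-resistant and 6240 to 10271 in control libraries. It was lowest in obesity-prone replicate 3. That library and control replicate 4 stood apart from the rest of their groups. Erythrocyte genes summed to 22214 CPM in obesity-prone replicate 3 and to 6160 CPM in control replicate 4, the highest values of their groups. Because the RNA comes from whole tissue, fewer or more endothelial cells cannot be told apart from less or more RNA per cell.

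Per unit of gene length, which lets genes be compared with each other, Cdh5 was the most abundant of the 35 genes, with a mean of 83.2 FPKM (read counts per length of gene and library size) over the 10 libraries. Cdh5 encodes VE-cadherin, the adhesion protein of endothelial junctions. Eng (77.8 FPKM), a co-receptor of the TGF-beta and BMP family, and Pecam1 (60.1 FPKM), a junctional adhesion molecule, came next. S1pr1, Ptprb, Egfl7, Esam, Podxl, Ramp2, Sox18, Emcn and Cd93 followed between 44.99 and 21.6 FPKM, and these 12 were the genes at or above 20 FPKM. Notch4 (8.61 FPKM), Dll4 (5.24) and Flt4 (3.39) stood lower, and 3 genes were below 1 FPKM, namely Selp (0.659), Sele (0.413) and Prox1 (0.188).

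Levels also varied within the groups, with the same libraries high or low for many of the 35 genes. Obesity-prone replicate 3 had the highest CPM of all 10 libraries for 19 of the 35 genes, and control replicate 1 the lowest for 18. Control replicate 4 was the highest control for 28 of the 35. Within the obesity-prone group, replicate 2 was the lowest for 27 genes and replicate 3 the highest for 26. Counted per library, 22, 16 and 26 of the 35 genes lay above every control library in obesity-prone replicates 1 to 3, against 13, 5 and 12 in obesity-resistant replicates 1 to 3. The share of all genes tested that did so was not computed, so these counts do not show an excess over it. The summed CPM of the 35 genes overlapped between the groups, at 2281 to 2994 in obesity-prone, 1974 to 2422 in obesity-resistant and 1548 to 2676 in control libraries.

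**Figure D1:**
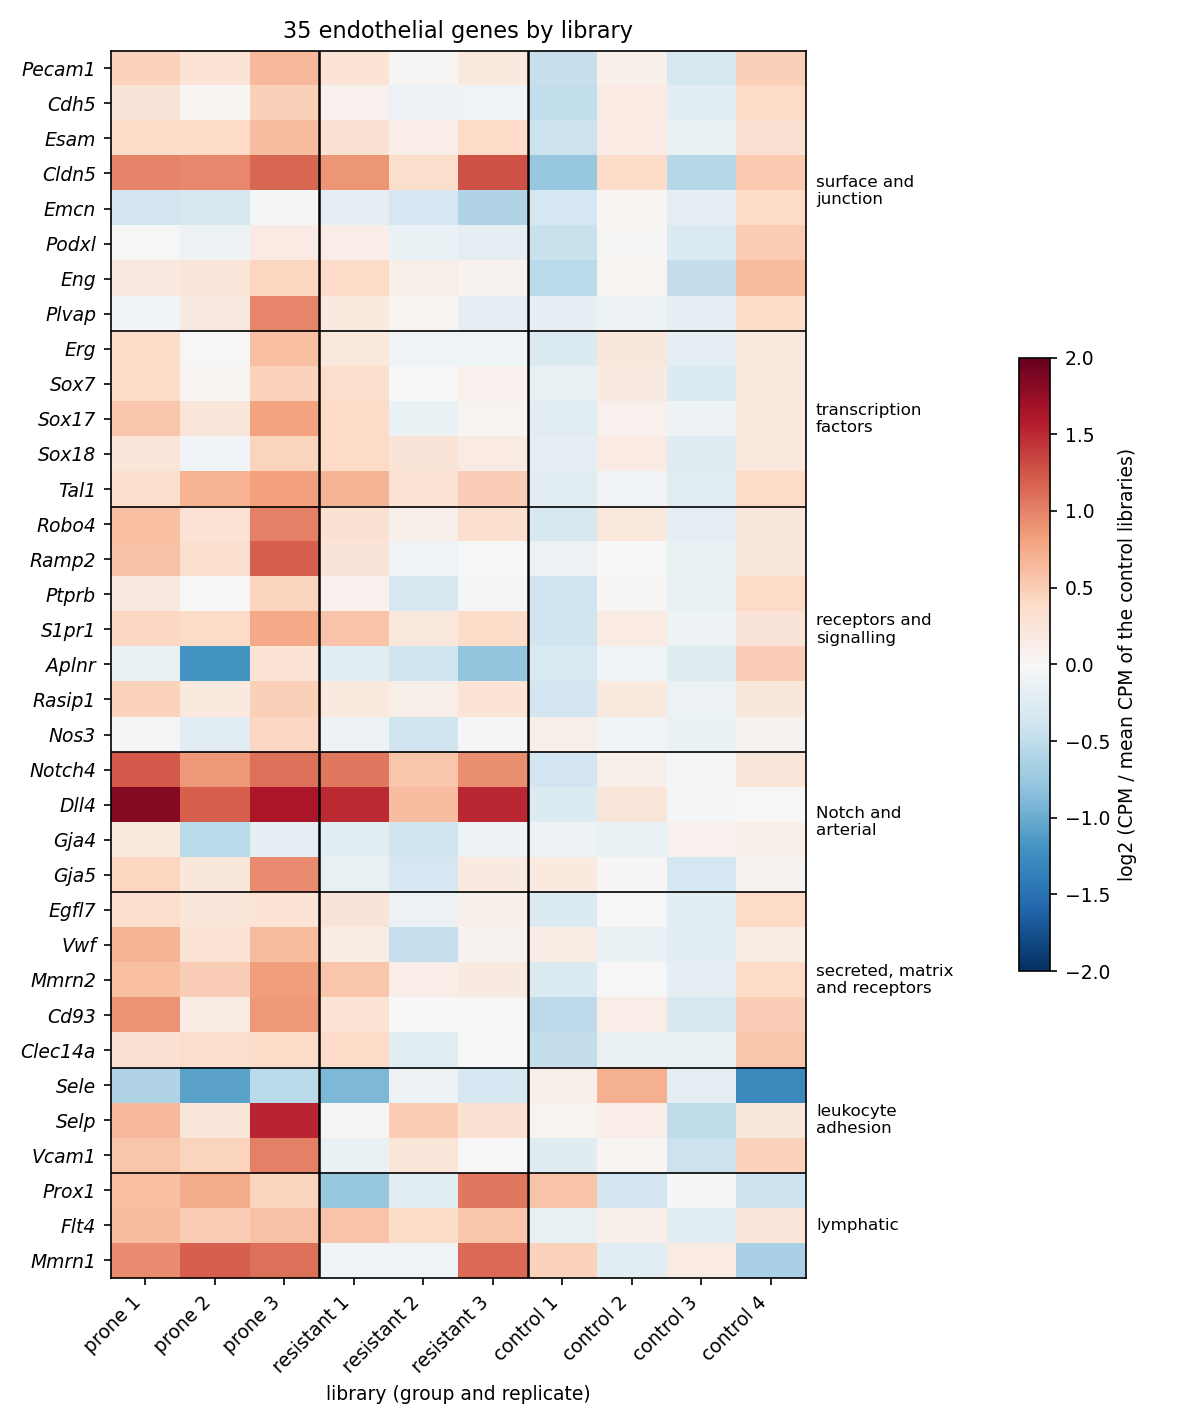
Level of each of the 35 endothelial genes in each of the 10 libraries, as the log2 ratio of its CPM to the mean of the 4 control libraries, with genes in rows by role and libraries in columns by group. Dll4 and Notch4 were above the control mean in all 6 high-fat diet libraries, and control replicate 4 was the highest control library for 28 of the 35 genes.

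The first question was how endothelial genes differ between libraries labelled obesity-prone and control. Of the 35 genes, 5 rose and 0 fell, where 3.71% of all genes tested rose and 3.29% fell, 7.00% in all. The fold change was above 0 for 31 of the 35, against 50.6% of all genes tested. The median over the 35 was 0.47 on the log2 scale, against a median of 0.0047 over all genes tested. The groups did not overlap, with every obesity-prone library above every control library, for 14 of the 35, against 9.66% of all genes tested, and the reverse held for 0 of the 35, against 10.6%. The count of 5 was sensitive to single libraries. It was 2, 10 and 2 without obesity-prone replicates 1, 2 and 3, 3 and 3 without obesity-resistant replicates 1 and 2, whose spread enters the shared estimate, and 2, 2, 1 and 17 without control replicates 1, 2, 3 and 4. Without both obesity-prone replicate 3 and control replicate 4, a choice made after seeing the data, 9 genes were called, the same 5 among them. DESeq2, another count test, called 14, all higher, where 1579 of the 19676 genes tested were higher and 1373 lower. Limma on FPKM called 4, all higher, against 649 higher and 377 lower. At an unadjusted p below 0.05 by edgeR there were 19 of the 35, against 5537 of the 19676.

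The genes of Notch signalling and arterial identity held the pair with the lowest p-values of the 35, Dll4 and Notch4. Dll4 (identifier 54485, chr2:119325784-119335666) encodes the Notch ligand delta-like 4. It had 31.9, 20.6 and 27.9 CPM in obesity-prone replicates 1 to 3, 25.1, 13.7 and 25.3 CPM in obesity-resistant replicates 1 to 3, and 7.41, 10.6, 8.81 and 8.997 CPM in control replicates 1 to 4. All 6 high-fat diet libraries lay above all 4 control libraries, and obesity-resistant replicate 2 was the nearest to control. The means were 26.8 ± 5.72 CPM (SD, n = 3) in obesity-prone and 8.95 ± 1.31 CPM (SD, n = 4) in control libraries. The log2 fold change was 1.58 ± 0.23 (SE), with an adjusted p of 0.0114 by edgeR. Dll4 was called in all 23 settings tried, and with each library left out in turn its log2 fold change stayed between 1.44 and 1.74 (adjusted p from 0.00795 to 0.048). The noncoding gene Gm14207 overlaps Dll4 and held 1 to 22 counts per library, against 265 to 1236 for Dll4, and with no strand setting stated, reads of one cannot be told apart from reads of the other.

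Notch4 (identifier 18132, chr17:34564286-34588543) encodes a Notch receptor found mainly in endothelium. It had 82.1, 63.9 and 75.0 CPM in obesity-prone, 72.4, 51.3 and 66.7 CPM in obesity-resistant and 26.9, 37.8, 34.0 and 41.4 CPM in control libraries. Here too every high-fat diet library lay above every control library. The obesity-prone mean was 73.7 ± 9.19 CPM (SD, n = 3) and the control mean 35.02 ± 6.21 CPM (SD, n = 4), so that the log2 fold change was 1.07 ± 0.16 (SE), with an adjusted p of 0.0133 by edgeR. The call was lost without control replicate 3, where the adjusted p was 0.0525, and held in the other 22 of the 23 settings.

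The sequences around the annotated starts of Notch4, Dll4 and Flt4, the called genes for which a window was given, are shown because Notch4 and Dll4 had the highest fold changes among the called genes. They come from RefSeq on build GRCm38.p6, run from 250 bases before to 50 bases after the start, and are printed on the plus strand, which is the strand of all 3 genes. Capitals mark matches, on either strand, to AGGAAG or CGGAAG (ETS-type motifs), TGGGAA (the core bound by RBPJ, the DNA-binding partner of Notch), ACAATG or ACAAAG (SOX-type motifs), TATAA and CCAAT. The last pair was added after the sequences had been seen.
Notch4, chr17:34564045-34564344: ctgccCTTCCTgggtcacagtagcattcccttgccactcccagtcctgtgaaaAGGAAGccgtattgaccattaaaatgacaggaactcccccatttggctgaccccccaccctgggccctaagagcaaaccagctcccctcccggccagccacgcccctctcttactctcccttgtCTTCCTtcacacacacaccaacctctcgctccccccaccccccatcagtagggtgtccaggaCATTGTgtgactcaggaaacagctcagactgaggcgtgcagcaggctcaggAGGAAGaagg
Dll4, chr2:119325534-119325833: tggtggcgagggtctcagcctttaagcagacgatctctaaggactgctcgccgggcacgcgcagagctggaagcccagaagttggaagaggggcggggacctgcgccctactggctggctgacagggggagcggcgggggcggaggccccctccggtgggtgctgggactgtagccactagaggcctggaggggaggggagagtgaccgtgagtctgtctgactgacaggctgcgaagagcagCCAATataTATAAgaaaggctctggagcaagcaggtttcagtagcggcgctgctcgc
Flt4, chr11:49609429-49609728: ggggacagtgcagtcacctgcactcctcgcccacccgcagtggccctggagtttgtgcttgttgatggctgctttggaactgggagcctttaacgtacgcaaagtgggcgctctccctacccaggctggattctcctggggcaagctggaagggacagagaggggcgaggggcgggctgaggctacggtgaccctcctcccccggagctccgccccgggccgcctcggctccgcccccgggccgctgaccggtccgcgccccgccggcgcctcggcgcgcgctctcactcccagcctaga

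The Notch4 window holds AGGAAG at 4 places, at window positions 6, 54, 178 and 291, and ACAATG at position 240. The Dll4 window holds CCAAT at position 244 and TATAA at position 252, and the Flt4 window holds none of the 7 motifs. Of the 35 genes, 18 matched 24 windows in the table. AGGAAG was in 45.8% of these and in 35.4% of all 32851 windows, TGGGAA in 25.0% against 25.6%, ACAATG in 12.5% against 12.6% and ACAAAG in 16.7% against 18.7%. CGGAAG was in 0 of the 24 against 16.9% of all windows, TATAA in 29.2% against 24.9% and CCAAT in 33.3% against 37.4%. A match describes these letters and is not evidence of a bound site.

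The other members of this group are Gja4 and Gja5, connexins of arterial endothelium that join neighbouring cells. Gja5 had 7.76, 6.69 and 11.1 CPM in obesity-prone, 5.20, 4.54 and 6.47 CPM in obesity-resistant and 6.57, 5.85, 4.50 and 6.05 CPM in control libraries. The 3 obesity-prone values were the highest, replicate 2 only just, and the log2 fold change against control of 0.57 ± 0.20 was not called (adjusted p = 0.103 by edgeR). Gja4 had 2.56 to 4.26 CPM in obesity-prone and 3.39 to 4.04 CPM in control libraries, a log2 fold change of -0.15. So 2 of the 4 genes of this group rose, against 3.71% of all genes tested. The connexins, which mark arteries, were not called.

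Among the partners of Notch, 2 of 9 rose, against 3.71% of all genes tested. Notch1, the other main endothelial Notch receptor and also expressed by many other cells, had 153, 134 and 162 CPM in obesity-prone, 156, 124 and 146 CPM in obesity-resistant and 91.0, 113, 91.7 and 105 CPM in control libraries. All 6 high-fat diet libraries were above control, and the log2 fold change of obesity-prone libraries was 0.58 ± 0.12 (SE, adjusted p = 0.0243 by edgeR). The call was lost without obesity-prone replicate 1 or 3 or control replicate 1 or 3, with adjusted p from 0.0563 to 0.0823, and held in 18 of the 23 settings. Hey1, a transcriptional repressor induced by Notch, had 14.0, 12.9 and 11.8 CPM in obesity-prone, 11.1, 6.04 and 7.95 CPM in obesity-resistant and 3.30, 5.19, 2.96 and 6.13 CPM in control libraries. All 3 obesity-prone values exceeded the rest, and obesity-resistant replicate 2 fell within the control range. Its log2 fold change was 1.55 ± 0.27 (SE, adjusted p = 0.0177 by edgeR), and without control replicate 3 the adjusted p was 0.0541. Hey1 was called in 21 of the 23 settings.

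The other Notch targets and ligands did not pass the threshold. Nrarp, a feedback inhibitor of Notch, had 13.1 to 18.3 CPM in obesity-prone and 7.41 to 12.6 CPM in control libraries (log2 fold change 0.72 ± 0.21, adjusted p = 0.0633 by edgeR). Hes1 and Hey2, further Notch targets, had log2 fold changes of 0.26 and -0.11. Heyl, which is also expressed in smooth muscle, had -0.45 ± 0.19 (adjusted p = 0.162). The ligands Jag1, Jag2 and Dll1 had log2 fold changes of 0.09, 0.41 and 0.09.

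**Figure D2:**
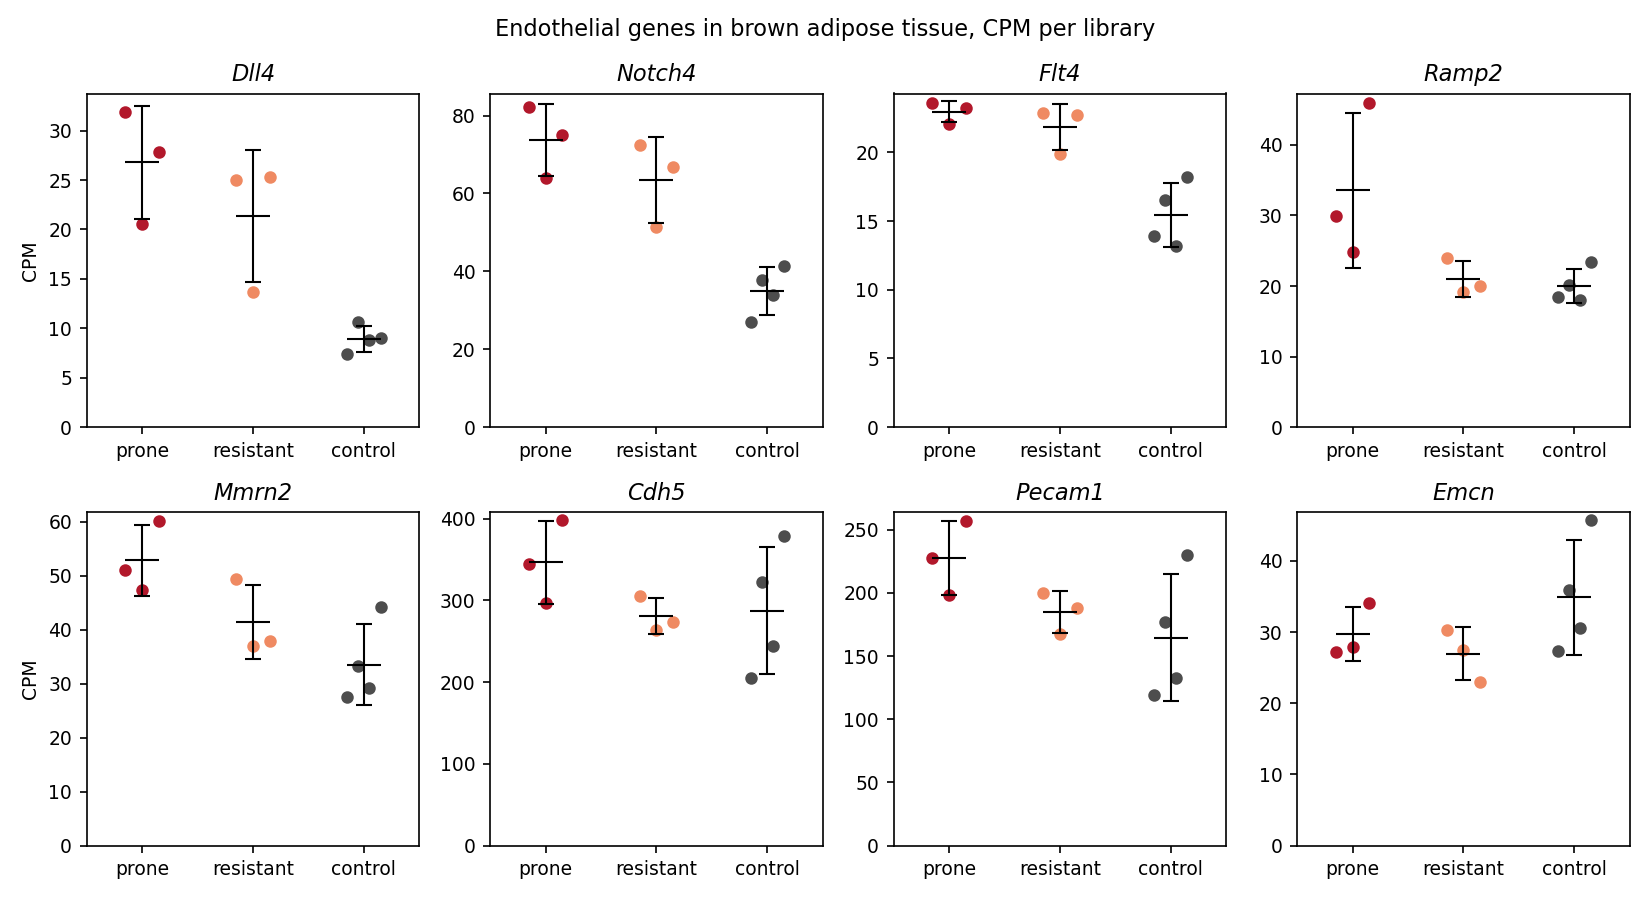
CPM of 8 endothelial genes in each library, with the mean and SD of each group as bars, from axes that start at 0. For Dll4, Notch4 and Flt4 every high-fat diet library lay above every control library, whereas Cdh5, Pecam1 and Emcn overlapped between the groups.

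Of the 3 lymphatic genes, Flt4 was called, where 3.71% of all genes tested rose. Flt4 (identifier 14257, chr11:49609679-49652739) encodes VEGFR3, the receptor of the lymphatic growth factor VEGF-C, which sprouting blood vessels also carry. It had 23.6, 22.1 and 23.2 CPM in obesity-prone, 22.9, 19.9 and 22.7 CPM in obesity-resistant and 13.9, 16.5, 13.2 and 18.2 CPM in control libraries. All 6 high-fat diet libraries lay above all 4 control libraries. The obesity-prone mean was 23.0 ± 0.783 CPM (SD, n = 3) and the control mean 15.5 ± 2.33 CPM (SD, n = 4), so that the log2 fold change was 0.57 ± 0.12 (SE), with an adjusted p of 0.0259 by edgeR. The call was lost without obesity-prone replicate 1 or 3 or without control replicate 1, 2 or 3, with adjusted p from 0.057 to 0.0749, and held in 16 of the 23 settings.

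The other lymphatic genes did not pass. Prox1, the transcription factor that sets lymphatic identity, was low, with 39 to 46 counts per library in obesity-prone and 20 to 40 in control libraries (log2 fold change 0.60 ± 0.40). Mmrn1, a secreted protein of lymphatic endothelium and platelets, had 7.48, 8.89 and 8.34 CPM in obesity-prone, 3.73, 3.71 and 8.53 CPM in obesity-resistant and 5.34, 3.33, 4.36 and 2.46 CPM in control libraries. Obesity-prone libraries lay above control for Mmrn1 (log2 fold change 1.09 ± 0.32, adjusted p = 0.0654 by edgeR), while obesity-resistant replicates split. Of 9 further lymphatic genes none was called by edgeR, and DESeq2 called 1, limma 0. An unadjusted p below 0.05 by edgeR held for 2 of the 9, against 5537 of the 19676 genes tested. Lyve1, a hyaluronan receptor of lymphatic endothelium and some macrophages, had the lowest p of them (log2 fold change 1.19 ± 0.41, adjusted p = 0.0948).

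Among 7 receptors and signalling genes, 1 rose, against 3.71% of all genes tested. Ramp2 (identifier 54409, chr11:101246334-101248250) encodes the protein that, with the receptor CALCRL, forms the adrenomedullin receptor. It had 29.9, 24.9 and 45.9 CPM in obesity-prone, 23.9, 19.1 and 19.99 CPM in obesity-resistant and 18.5, 20.2, 17.99 and 23.4 CPM in control libraries. Obesity-prone libraries lay above all others, with replicate 3 far above the other two and replicate 2 close to control replicate 4. The log2 fold change against control was 0.75 ± 0.19 (SE, adjusted p = 0.0451 by edgeR). Without obesity-prone replicate 3 it was 0.45 (adjusted p = 0.0983), and the call held without obesity-prone replicate 2 or control replicate 4 and in none of the other 8 fits that left out 1 library (adjusted p up to 0.126). It held in 9 of the 23 settings.

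Adm, the peptide that the RAMP2 receptor binds, also rose. It had 5.24, 3.05 and 4.08 CPM in obesity-prone, 2.25, 1.93 and 1.59 CPM in obesity-resistant and 0.811, 1.62, 1.14 and 2.17 CPM in control libraries. Again the obesity-prone values were the highest, and its log2 fold change was 1.52 ± 0.31 (SE, adjusted p = 0.0262 by edgeR). The call was lost without obesity-prone replicate 1 or 3 or control replicate 1, 2 or 3 (adjusted p from 0.0563 to 0.085) and held in 17 of the 23 settings. Calcrl, the receptor's other chain, had 15.9 to 22.5 CPM in obesity-prone and 13.8 to 23.4 CPM in control libraries (log2 fold change 0.20, adjusted p = 0.523).

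The other receptors and signalling genes did not pass. Robo4, a receptor that stabilises vessels, came closest, with 66.2, 53.4 and 87.6 CPM in obesity-prone, 53.8, 46.8 and 54.2 CPM in obesity-resistant and 34.9, 50.3, 38.3 and 50.7 CPM in control libraries (log2 fold change 0.66 ± 0.18, adjusted p = 0.0522 by edgeR). S1pr1, the receptor for the lipid sphingosine 1-phosphate that tightens junctions, had 143 to 185 CPM in obesity-prone and 82.8 to 131 CPM in control libraries (0.52 ± 0.16, adjusted p = 0.0763). For both genes every obesity-prone library exceeded every control library. Rasip1, a regulator of vessel lumen formation, had 44.7 to 54.1 CPM in obesity-prone and 30.0 to 45.4 CPM in control libraries, and Ptprb, a phosphatase that restrains the TIE2 receptor, 343 to 466 CPM in obesity-prone and 260 to 454 CPM in control libraries. Nos3, the endothelial nitric oxide synthase, had 30.1 to 47.1 CPM in obesity-prone and 32.1 to 38.4 CPM in control libraries (0.08 ± 0.15, adjusted p = 0.773). Aplnr, the apelin receptor, had 7.15 to 19.9 CPM in obesity-prone and 13.2 to 23.0 CPM in control libraries (-0.23 ± 0.31, adjusted p = 0.66).

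Of 17 ligands and partners of Ramp2, Aplnr, S1pr1 and Eng, 4 rose, Adm among them, against 3.71% of all genes tested. Id3, a transcriptional inhibitor induced by BMP signals, had 32.9, 29.9 and 36.6 CPM in obesity-prone, 27.2, 22.4 and 27.5 CPM in obesity-resistant and 14.9, 17.6, 17.6 and 23.8 CPM in control libraries (log2 fold change 0.84 ± 0.15, adjusted p = 0.0198 by edgeR). Every obesity-prone library was above every other library, and without control replicate 2 or 3 the adjusted p was 0.0549 and 0.0677. Smad7, an inhibitor of TGF-beta signalling, averaged 81.6 ± 4.39 CPM (SD, n = 3) in obesity-prone and 38.4 ± 13.2 CPM (SD, n = 4) in control libraries (1.09 ± 0.25, adjusted p = 0.0351), and the call was lost in 7 of the 10 fits without 1 library. Sphk1, an enzyme that makes sphingosine 1-phosphate, had 27 to 36 counts per library in obesity-prone and 6 to 15 in control libraries (1.67 ± 0.44, adjusted p = 0.0487), and that call was also lost in 8 of the 10. These genes are expressed in many cell types beside endothelium.

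Among 9 partners of the nitric oxide synthase none was called by edgeR, and DESeq2 called 1 and limma 0. Of these 9, 2 had an unadjusted p below 0.05 by edgeR, against 5537 of the 19676 genes tested. Gch1, which makes the cofactor of that enzyme, had the lowest p (log2 fold change 0.83 ± 0.23, adjusted p = 0.0542).

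**Figure D3:**
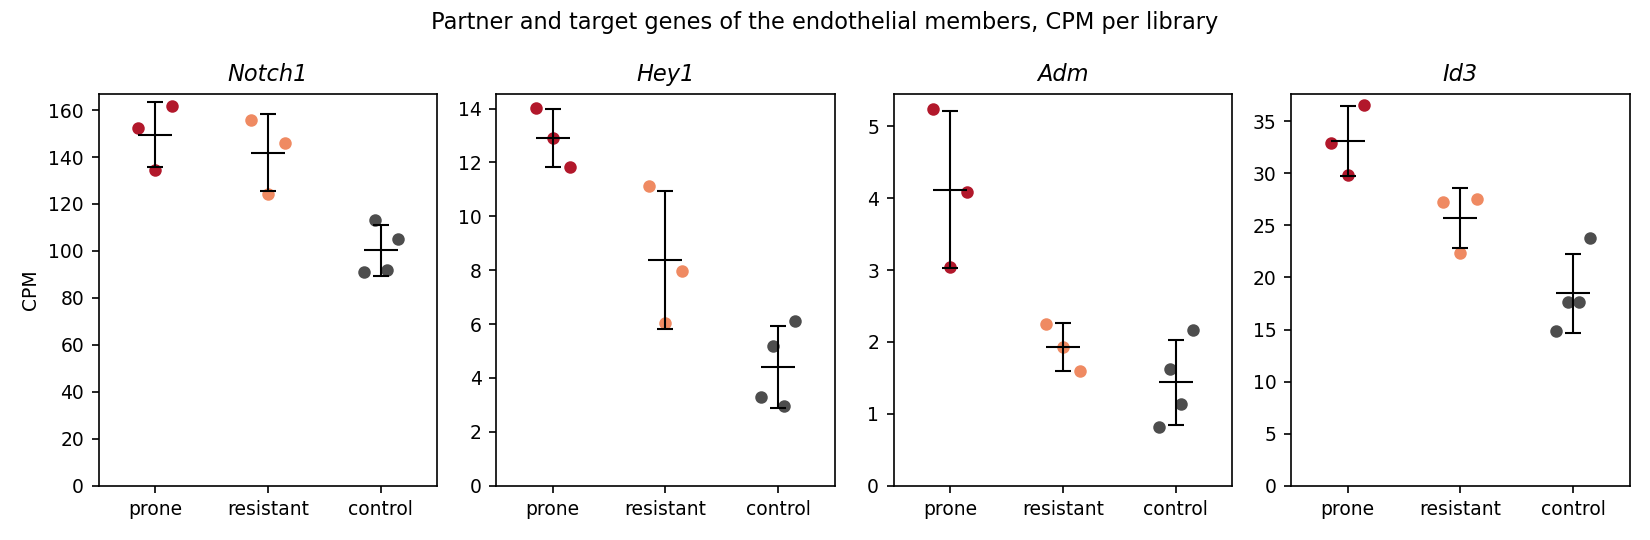
CPM of Notch1, Hey1, Adm and Id3, partners or targets of the endothelial genes, in each library, with the mean and SD of each group as bars. Obesity-prone libraries lay above all control libraries for each of the 4 genes. Obesity-resistant libraries overlapped with control for Hey1, Adm and Id3, and lay above all control libraries for Notch1.

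Of 5 secreted or matrix-bound proteins and their receptors, 1 rose, against 3.71% of all genes tested. Mmrn2 (identifier 105450, chr14:34375504-34404287) encodes multimerin 2, an endothelial matrix protein that binds the receptors CD93 and CLEC14A. It had 51.0, 47.4 and 60.1 CPM in obesity-prone, 49.4, 36.9 and 37.9 CPM in obesity-resistant and 27.5, 33.2, 29.2 and 44.2 CPM in control libraries. Obesity-prone libraries lay above every control library by a narrow margin over control replicate 4, and obesity-resistant replicate 1 was within the obesity-prone range. The log2 fold change was 0.66 ± 0.17 (SE, adjusted p = 0.048 by edgeR). The call held without obesity-prone replicate 2 or control replicate 4 and was lost in each of the other 8 fits that left out 1 library (adjusted p up to 0.134). It held in 11 of the 23 settings.

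The receptors of multimerin 2 were more variable. Cd93 had 209, 124 and 205 CPM in obesity-prone, 136, 113 and 112 CPM in obesity-resistant and 78.2, 122, 90.0 and 157 CPM in control libraries, a log2 fold change of 0.68 ± 0.25 with overlapping groups (adjusted p = 0.108 by edgeR). Clec14a had 19.3 to 20.4 CPM in obesity-prone and 11.3 to 23.0 CPM in control libraries (0.35 ± 0.22). Vwf, the von Willebrand clotting factor that platelets also carry, had 61.5, 46.0 and 59.1 CPM in obesity-prone, 42.3, 27.8 and 40.1 CPM in obesity-resistant and 42.5, 34.96, 32.9 and 42.5 CPM in control libraries. The obesity-prone libraries were the 3 highest for Vwf (0.54 ± 0.16, adjusted p = 0.0701). Egfl7, a secreted factor of growing vessels, had 72.1 to 77.7 CPM in obesity-prone and 49.8 to 79.9 CPM in control libraries (0.29 ± 0.16).

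None of the 8 genes of the general endothelial surface and junctions was called by edgeR, DESeq2 called 1 and limma 0. An unadjusted p below 0.05 by edgeR held for 3 of the 8, against 5537 of the 19676 genes tested. Without control replicate 4, edgeR called 4 of the 8, with adjusted p of 0.0262 for Pecam1, 0.0295 for Cldn5, 0.031 for Esam and 0.0463 for Eng. Without both obesity-prone replicate 3 and control replicate 4 it called Pecam1 alone of the 8. Cdh5 had 344, 297 and 398 CPM in obesity-prone, 305, 264 and 274 CPM in obesity-resistant and 205, 322, 245 and 378 CPM in control libraries. The groups overlapped, since control replicates 2 and 4 were within the obesity-prone range, and the log2 fold change was 0.27 ± 0.20 (adjusted p = 0.398 by edgeR). Pecam1 had 198 to 257 CPM in obesity-prone and 119 to 230 CPM in control libraries (0.47 ± 0.20, adjusted p = 0.169). Esam, a tight junction adhesion molecule, had 107 to 127 CPM in obesity-prone and 61.9 to 102 CPM in control libraries (0.46 ± 0.16, adjusted p = 0.0926).

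Cldn5, the main claudin of endothelial tight junctions, had the highest fold change of the surface and junction genes. It had 30.7, 30.0 and 34.3 CPM in obesity-prone, 28.3, 19.7 and 37.3 CPM in obesity-resistant and 9.14, 20.1, 10.4 and 22.1 CPM in control libraries. The control libraries fell into a lower and a higher pair, all below the obesity-prone libraries, and the log2 fold change was 1.04 ± 0.31 (adjusted p = 0.0677 by edgeR). Eng had 251 to 299 CPM in obesity-prone and 152 to 343 CPM in control libraries, and Podxl, a sialomucin of the luminal surface, 136 to 162 CPM in obesity-prone and 107 to 206 CPM in control libraries. Plvap, a protein of the diaphragms over capillary pores, had 22.6 to 46.5 CPM in obesity-prone and 20.7 to 30.6 CPM in control libraries. Emcn, a sialomucin of capillary and venous endothelium, had 27.2 to 34.1 CPM in obesity-prone and 27.3 to 45.7 CPM in control libraries, a log2 fold change of -0.23 ± 0.17 (adjusted p = 0.415).

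None of the 5 transcription factors was called by edgeR, DESeq2 called 2 and limma 0. An unadjusted p below 0.05 by edgeR held for 2 of the 5, against 5537 of the 19676 genes tested. All 5 had fold changes above 0. Tal1, a factor of blood and endothelial lineages, had 6.40, 8.10 and 8.82 CPM in obesity-prone, 8.06, 6.10 and 7.02 CPM in obesity-resistant and 4.33, 4.84, 4.30 and 6.59 CPM in control libraries (0.63 ± 0.18, adjusted p = 0.0614 by edgeR). Sox17, a factor of arterial endothelium, had 22.3, 17.9 and 26.7 CPM in obesity-prone, 20.05, 13.9 and 15.7 CPM in obesity-resistant and 13.0, 16.1, 14.2 and 17.5 CPM in control libraries (0.55 ± 0.17, adjusted p = 0.0681). Obesity-prone libraries exceeded control for Sox17 and overlapped with control for Tal1. Erg, Sox7 and Sox18, which act across endothelium, had log2 fold changes of 0.34, 0.31 and 0.23. Erg had 14.0 to 21.1 CPM in obesity-prone and 11.5 to 16.3 CPM in control libraries, Sox7 24.1 to 32.4 CPM in obesity-prone and 19.4 to 26.9 CPM in control libraries, and Sox18 35.1 to 49.7 CPM in obesity-prone and 30.9 to 42.3 CPM in control libraries. Obesity-prone libraries overlapped with control for all 3.

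None of the 3 leukocyte adhesion genes was called by edgeR, DESeq2 called 2 and limma 0. An unadjusted p below 0.05 by edgeR held for 2 of the 3, against 5537 of the 19676 genes tested. Vcam1, the adhesion molecule for integrin alpha 4 beta 1, had 14.3, 13.3 and 19.6 CPM in obesity-prone, 8.87, 11.6 and 9.76 CPM in obesity-resistant and 8.27, 10.1, 7.24 and 13.5 CPM in control libraries (0.69 ± 0.21, adjusted p = 0.0747 by edgeR). Control replicate 4 was just inside the obesity-prone range. Selp, P-selectin, had 2.60, 1.99 and 4.82 CPM in obesity-prone and 1.17 to 1.95 CPM in control libraries (0.91 ± 0.30, adjusted p = 0.0869). Sele, E-selectin, had 31 to 46 counts per library in obesity-prone and 27 to 100 in control libraries, a log2 fold change of -0.72 ± 0.40 (adjusted p = 0.269).

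Icam1, the adhesion molecule that leukocyte beta 2 integrins bind, rose as 1 of 8 leukocyte ligands and adhesion partners, against 3.71% of genes tested. It had 15.1, 14.2 and 19.8 CPM in obesity-prone, 10.2, 14.0 and 12.4 CPM in obesity-resistant and 4.67, 7.07, 4.45 and 10.8 CPM in control libraries (log2 fold change 1.28 ± 0.28, adjusted p = 0.0307 by edgeR). The obesity-prone values were above the rest. The call was lost in 7 of the 10 fits that left out 1 library (adjusted p up to 0.0897), and Icam1 is made by leukocytes too.

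Of a further 28 vascular endothelial genes outside the 35, none was called by edgeR, DESeq2 called 3 and limma 1. An unadjusted p below 0.05 by edgeR held for 11 of the 28, against 5537 of the 19676 genes tested. Of these 28, 24 had fold changes above 0, against 50.6% of all genes tested. Their median was 0.32 on the log2 scale, against 0.0047 over all genes tested. Flt1, the VEGFR1 receptor, had the lowest p, with 229 to 263 CPM in obesity-prone and 136 to 202 CPM in control libraries (0.55 ± 0.15, adjusted p = 0.0577 by edgeR). Kdr, VEGFR2, had 291 to 368 CPM in obesity-prone and 168 to 334 CPM in control libraries (0.41 ± 0.22, adjusted p = 0.236).

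**Figure D4:**
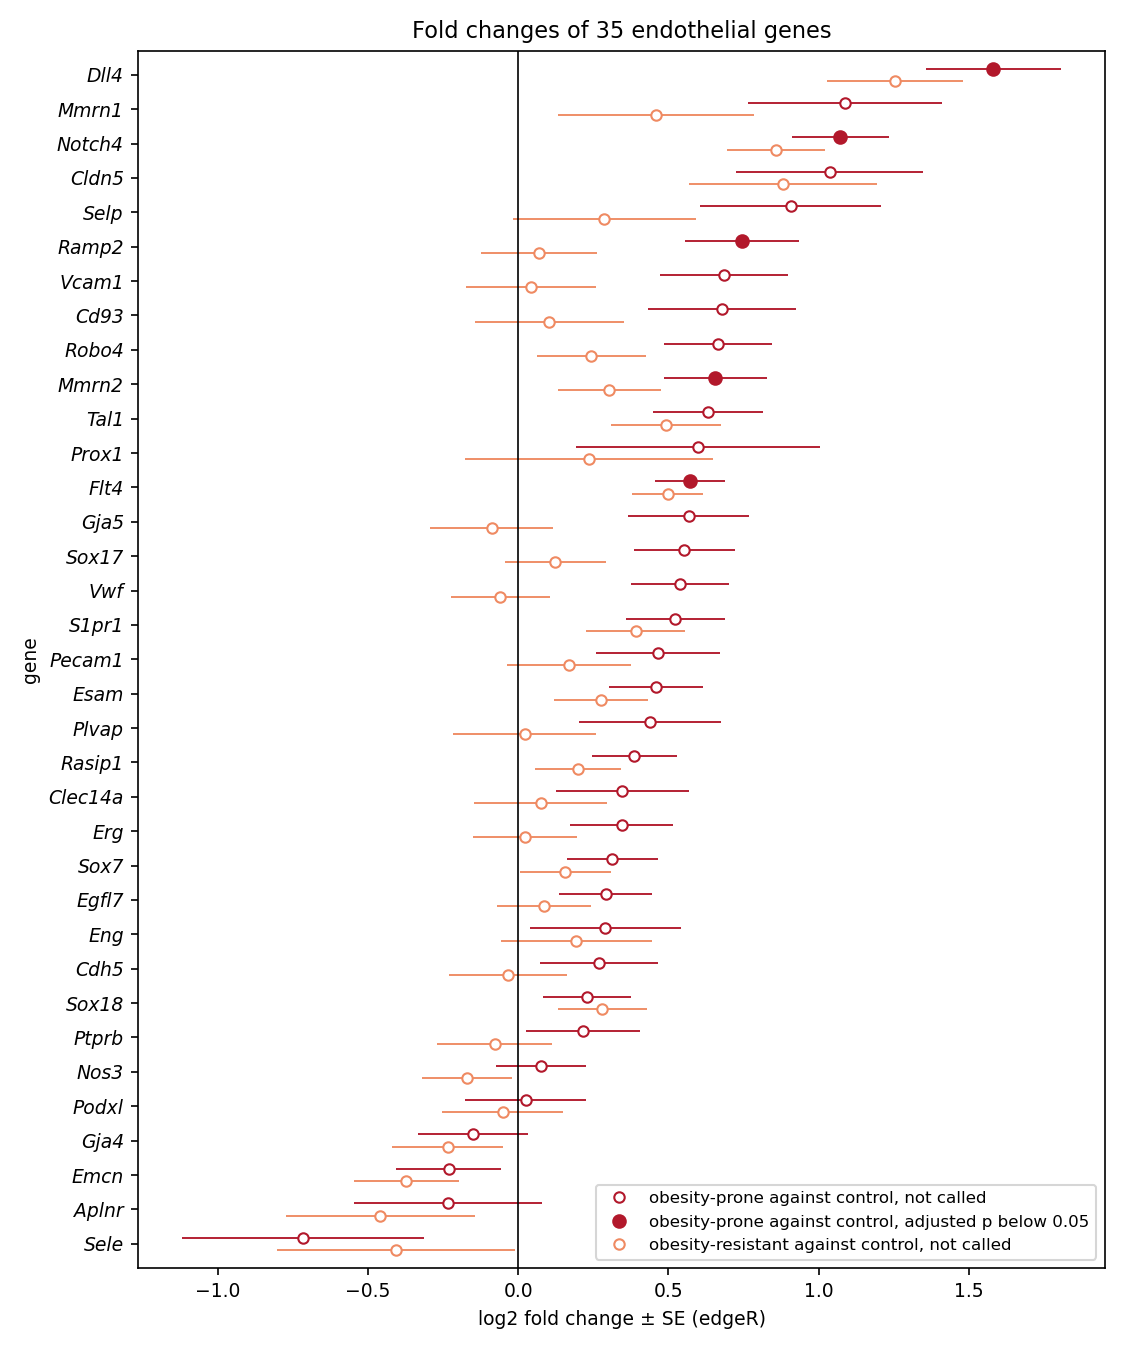
Log2 fold changes of the 35 endothelial genes with their SE, for obesity-prone against control and obesity-resistant against control, from edgeR, with filled points for adjusted p below 0.05. The 5 filled points are Dll4, Notch4, Ramp2, Mmrn2 and Flt4 in obesity-prone libraries, and none is filled for obesity-resistant libraries.

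Markers of other cells also moved. Of 12 macrophage genes, Lyz2 and Tyrobp rose in obesity-prone against control libraries (log2 fold changes 1.29 and 1.45, adjusted p = 0.0331 and 0.0399 by edgeR). Without obesity-prone replicate 3 neither was called, and they were called in 10 and 8 of the 23 settings. Of the 12, 11 had an unadjusted p below 0.05 by edgeR, against 5537 of the 19676 genes tested. DESeq2 called 7 of the 12 higher and 1 lower, against 1579 and 1373 of all genes tested. Against obesity-resistant libraries DESeq2 called 8 of the 12 higher and 0 lower, against 381 and 148 of all genes tested. The summed CPM of the list was 242 to 581 in obesity-prone, with the lowest value in replicate 2, 178 to 236 in obesity-resistant and 224 to 341 in control libraries. The 7 erythrocyte genes, none called by edgeR or DESeq2 though all 7 had an unadjusted p below 0.05, summed to 2418 to 22214 CPM in obesity-prone, 708 to 2548 in obesity-resistant and 822 to 6160 in control libraries. Of 10 platelet genes 6 were tested, none was called by edgeR or DESeq2 and 2 had an unadjusted p below 0.05. The platelet list summed to 10.03 to 31.7 CPM in obesity-prone, 6.18 to 8.65 in obesity-resistant and 5.59 to 16.5 in control libraries, and the platelet chemokine Ppbp was at 0 in 9 of the 10 libraries. Fibroblast genes (0 of 10 called by edgeR, 4 with an unadjusted p below 0.05, 3 by DESeq2) summed to 806 to 2047 CPM in obesity-prone, 532 to 685 in obesity-resistant and 568 to 972 in control libraries. The part of these cells in the levels of Pecam1, Vwf, Selp, Mmrn1, Tal1, Vcam1 or Icam1, which some of them also express, was not tested.

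The other cell type lists held 1 call in all. For comparison, 5537 of the 19676 genes tested had an unadjusted p below 0.05 by edgeR in obesity-prone against control libraries. Pericyte and smooth muscle genes, from the cells that wrap vessels, had 0 of 12 called by edgeR, 2 with an unadjusted p below 0.05 and 0 by DESeq2, and summed to 1062 to 1171 CPM in obesity-prone, 965 to 1146 in obesity-resistant and 948 to 1161 in control libraries. The 9 brown adipocyte genes (0 called by edgeR, 2 with an unadjusted p below 0.05, 1 lower by DESeq2) summed to 5195 to 11910 CPM in obesity-prone, 12471 to 13507 in obesity-resistant and 10248 to 13669 in control libraries. Skeletal muscle genes (0 of 10 called by edgeR or DESeq2, 0 with an unadjusted p below 0.05) summed to 1.33 to 57.03 CPM in obesity-prone, 2.25 to 568 in obesity-resistant and 0.910 to 649 in control libraries. With the skeletal muscle level as a covariate, 3 of the 35 endothelial genes were called, Dll4, Notch4 and Flt4. Mast cell genes (0 of 6 tested called, 1 with an unadjusted p below 0.05, 1 by DESeq2) summed to 14.4 to 28.0 CPM in obesity-prone, 11.2 to 20.4 in obesity-resistant and 15.3 to 20.7 in control libraries. Of 5 mesothelial genes 1 was tested, Lrrn4, which fell, with 0.490 to 0.925 CPM in obesity-prone and 2.30 to 8.01 CPM in control libraries (log2 fold change -2.98 ± 0.41, adjusted p = 0.00992 by edgeR). The part of these cells in the endothelial results was not tested.

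To set the Notch genes against a general endothelial gene, each gene was divided by Cdh5 in the same library, a step chosen after seeing the data. Cdh5 alone need not follow the amount of endothelial RNA. Dll4 stood at 9.26%, 6.94% and 6.996% of the Cdh5 level in obesity-prone, 8.21%, 5.19% and 9.26% in obesity-resistant and 3.62%, 3.29%, 3.598% and 2.38% in control libraries. Notch4 stood at 23.8%, 21.5% and 18.8% in obesity-prone, 23.7%, 19.4% and 24.4% in obesity-resistant and 13.1%, 11.7%, 13.9% and 10.9% in control libraries. Both genes, relative to Cdh5, were higher in all 6 high-fat diet libraries than in any control library, including control replicate 4, where Cdh5 was highest among controls. Hey1 gave 4.07%, 4.35% and 2.97% in obesity-prone, 3.64%, 2.29% and 2.91% in obesity-resistant and 1.61%, 1.61%, 1.21% and 1.62% in control libraries, with no overlap between high-fat diet and control libraries either. Heyl went the other way, at 8.71%, 10.1% and 7.22% in obesity-prone, below all control libraries at 12.2% to 17.8%. In obesity-resistant libraries Heyl overlapped with control, at 11.9% to 17.1%. Of the 9 Notch partners, 2 lay above control without overlap in obesity-prone libraries (Hey1 and Nrarp, against 3.04% of all genes tested). Heyl alone lay below (against 6.03%). In obesity-resistant libraries 4 lay above, Notch1, Jag2, Hey1 and Nrarp, against 5.59%.

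Of the 34 genes other than Cdh5, this ratio put 10 above all control libraries in obesity-prone libraries, against 3.04% of all genes tested, and 2 below, against 6.03%. The 10 were Pecam1, Esam, Cldn5, Robo4, S1pr1, Notch4, Dll4, Mmrn2, Cd93 and Vcam1, and the 2 were Emcn and Podxl. Emcn stood at 7.89% to 9.40% of Cdh5 in obesity-prone and 11.2% to 13.3% in control libraries. Ramp2 and Flt4, both called by CPM, overlapped with control in this ratio. In obesity-resistant libraries 10 of the 34 lay above control, against 5.59% of all genes tested, and 2 below, Emcn and Aplnr, against 1.90%. With each of the 8 surface and junction genes as the divisor in turn, Dll4 was above control without overlap for 7 of 8 in both comparisons, with ratios of group means from 1.30 to 3.46 in obesity-prone and from 1.16 to 3.08 in obesity-resistant libraries. The exception was Cldn5. Notch4 was above control for 6 of 8 in obesity-prone libraries, the exceptions being Cldn5 and Plvap, and for 7 of 8 in obesity-resistant libraries, the exception being Cldn5. Its ratios of group means ran from 0.935 to 2.47 in obesity-prone and from 0.929 to 2.35 in obesity-resistant libraries, with the value below 1 in each coming from Cldn5 as the divisor. Between obesity-prone and obesity-resistant libraries the ratio to Cdh5 put 2 of the 34 above without overlap, Ramp2 and Vwf, against 2.79% of all genes tested, and 4 below, against 24.0%. These ratios were not tested beyond the overlap of the groups.

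**Figure D5:**
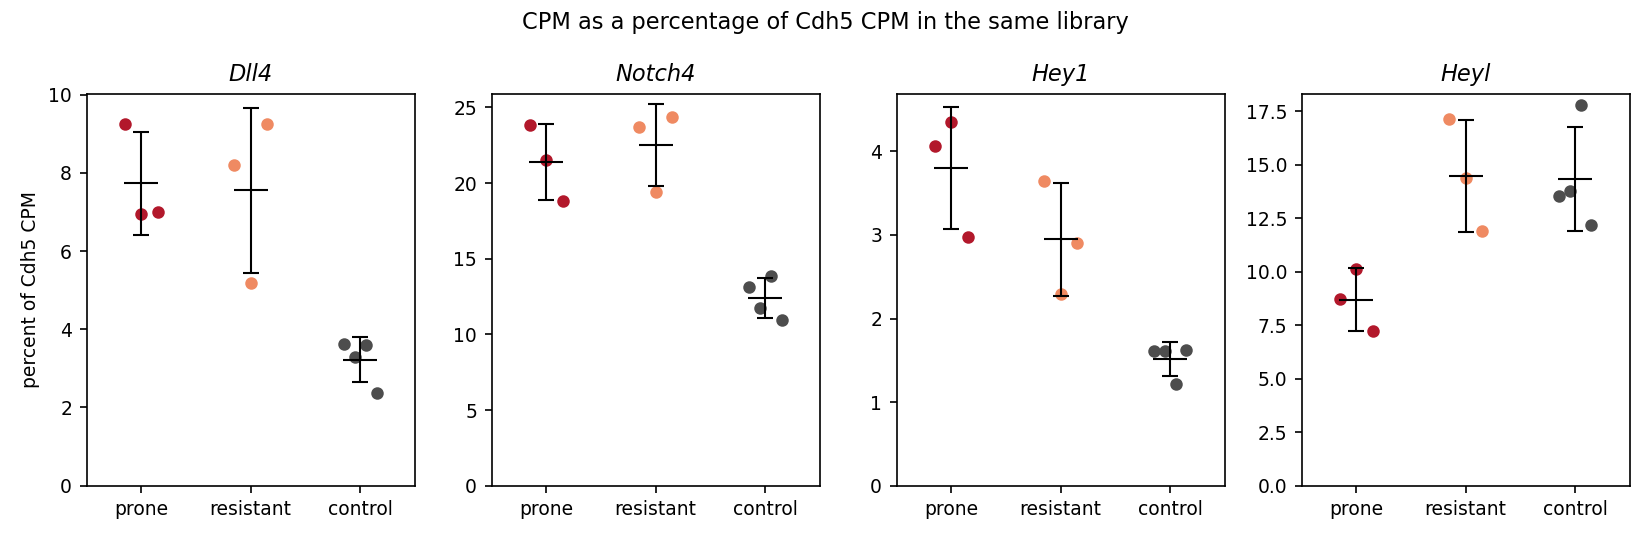
CPM of Dll4, Notch4, Hey1 and Heyl as a percentage of the CPM of Cdh5 in the same library, with the mean and SD of each group as bars. For Heyl, obesity-prone libraries lay at 7.22% to 10.1%, below all control libraries at 12.2% to 17.8%. Control libraries lay at 2.38% to 3.62% for Dll4 and 10.9% to 13.9% for Notch4, below all 6 high-fat diet libraries.

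The next question was how the same genes differ between obesity-resistant and control libraries. This comparison shares its control libraries with the comparison above, so likeness between them is not independent. Of the 35 genes, edgeR called 0, where 0.0966% of all genes tested rose and 0.0457% fell, 28 genes or 0.142% in all. At an unadjusted p below 0.05 by edgeR there were 6 of the 35, against 3540 of the 19676 genes tested. DESeq2 called 3, all higher, against 524 higher and 548 lower over all genes tested. Limma called 0, against 29 higher and 7 lower. The fold change was above 0 for 25 of the 35, against 49.1% of all genes tested. The median over the 35 was 0.12, and over all genes tested -0.0061. The median over the 35 moved by more than 1.5 times with single libraries left out. It was 0.045 without obesity-resistant replicate 1 and 0.20 without obesity-resistant replicate 2. Of the controls, leaving out replicate 1 gave 0.042, replicate 3 gave 0.064 and replicate 4 gave 0.25. The groups did not overlap for 3 of the 35, Dll4, Notch4 and Flt4, against 10.5% of all genes tested, and the reverse held for 0, against 9.71%.

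Dll4 had the lowest p of the 35 in obesity-resistant libraries. It averaged 21.4 ± 6.64 CPM (SD, n = 3) in obesity-resistant and 8.95 ± 1.31 CPM (SD, n = 4) in control libraries, and the log2 fold change was 1.25 ± 0.23 (SE), with an adjusted p of 0.0563 by edgeR. Notch4 averaged 63.5 ± 10.9 CPM in obesity-resistant and 35.02 ± 6.21 CPM in control libraries (0.86 ± 0.16, adjusted p = 0.0633). Flt4 averaged 21.8 ± 1.66 CPM in obesity-resistant and 15.5 ± 2.33 CPM in control libraries (0.50 ± 0.12, adjusted p = 0.0928). Single libraries decided on which side of the threshold the 3 genes fell. With each of the 10 libraries left out in turn, Dll4 was called in 4 fits, Notch4 in 3 and Flt4 in 1. The adjusted p was highest without obesity-resistant replicate 1, at 0.277 for Dll4, 0.285 for Notch4 and 0.33 for Flt4, and without control replicate 1, 2 or 3 it lay between 0.138 and 0.222 for these genes. Without control replicate 4 the adjusted p was 0.032 for Dll4, 0.0196 for Notch4 and 0.0218 for Flt4. Without obesity-prone replicate 2 it was 0.038 for Dll4 and 0.0464 for Notch4, without obesity-prone replicate 3 it was 0.0443 and 0.0459, and without obesity-resistant replicate 2 it was 0.0487 for Dll4. Without both obesity-prone replicate 3 and control replicate 4, 5 genes were called, Dll4, Notch4, Flt4, Mmrn2 and Tal1.

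Cldn5 and Tal1 came next, with log2 fold changes of 0.88 ± 0.31 (adjusted p = 0.186 by edgeR) and 0.49 ± 0.18 (adjusted p = 0.205), and overlapping groups. Ramp2 and Mmrn2, which were called in obesity-prone libraries, had log2 fold changes of 0.07 ± 0.19 (adjusted p = 0.888) and 0.30 ± 0.17 (adjusted p = 0.381) in obesity-resistant libraries. Of the 9 Notch partners none was called by edgeR, DESeq2 called 2 and limma 0. An unadjusted p below 0.05 by edgeR held for 2 of the 9, against 3540 of the 19676 genes tested. Notch1 had a log2 fold change of 0.50 ± 0.12 (adjusted p = 0.0896) and Hey1 of 0.93 ± 0.27 (adjusted p = 0.125).

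The comparison of obesity-prone with obesity-resistant libraries, both on the high-fat diet, asked which genes go with the label rather than the diet. Of the 35 genes, edgeR called 0, as it called 0 of all 19676 genes tested, or 0%. At an unadjusted p below 0.05 by edgeR there were 5 of the 35, against 3030 of all genes tested. DESeq2 called 0 of the 35, against 381 higher and 148 lower over all genes tested. Limma called 0 of the 35 and 0 of all genes tested. The fold change was above 0 for 33 of the 35, against 48.9% of all genes tested. The median over the 35 was 0.27, and over all genes tested -0.0075. The groups did not overlap, with obesity-prone above, for 4 of the 35, against 9.99% of all genes tested. With obesity-prone below, this held for 0 of the 35, against 9.75%. So the calls of Ramp2, Mmrn2, Flt4, Dll4 and Notch4 against control in obesity-prone libraries do not show that these libraries differ from obesity-resistant ones.

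The 5 genes with the lowest p here were Vwf, Ramp2, Gja5, Vcam1 and Sox17. Vwf had a log2 fold change of 0.60 ± 0.18 (adjusted p = 0.233 by edgeR), and all obesity-prone libraries lay above all obesity-resistant ones. Ramp2 had 0.68 ± 0.20 (adjusted p = 0.234), also without overlap, and without obesity-prone replicate 2 it was the 1 gene of the 35 to be called (adjusted p = 0.0406). Without obesity-prone replicate 3 its log2 fold change was 0.38 (adjusted p = 0.6 by edgeR). Gja5 had 0.66 ± 0.22 (adjusted p = 0.247) and Vcam1 0.64 ± 0.23 (adjusted p = 0.264), both without overlap, and Sox17 had 0.43 ± 0.18 (adjusted p = 0.301). Without obesity-prone replicate 3 the log2 fold change was 0.42 for Gja5 and 0.28 for Sox17, and with each library left out in turn none of Vwf, Gja5, Vcam1 and Sox17 was called. The median over the 35 was 0.17 without obesity-prone replicate 3, 0.16 without obesity-resistant replicate 2 and 0.16 without both obesity-prone replicate 3 and control replicate 4. Dll4, Notch4 and Flt4 had log2 fold changes of 0.33 ± 0.24, 0.21 ± 0.17 and 0.07 ± 0.13 between these groups (adjusted p from 0.522 to 0.801), the groups overlapping for each.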

How the data were processed

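RNA from brown adipose tissue was sequenced in 10 libraries. Per the labels' protocols, Bowtie2 2.2.5 placed the reads on a sequencing-company gene set and RSEM 1.2.12 quantified them. HISAT2 2.0.4 and the build GRCm38.p6 are named in the submitters' processing notes. The strand setting and annotation release are not given in the sources used here. The deposited table holds RSEM expected counts, not normalised, of which 30.4% were not whole. It also holds FPKM values by the authors, scaled by gene length and library size, whose scale followed the count totals to within 0.064%. The authors' 6 group-mean columns were not used.

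Expected counts were rounded and fitted in edgeR 4.0.16 (R 4.3.3) by the robust quasi-likelihood method over all 10 libraries (7 residual degrees of freedom), with TMM factors and a filterByExpr minimum of 10 counts. P-values were adjusted by Benjamini-Hochberg over 19676 genes. Libraries of a group differed by more than sampling noise (chi-square per degree of freedom at least 28.9). At this depth, genes with few counts are imprecise.

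The 35 genes and the other lists were chosen with earlier results of these data known. Every gene of the 35 is named with its levels. Fold changes with SE and adjusted p are given for genes called and the 5 lowest p of each comparison. From 15 other lists (162 of 163 genes found), genes called and the lowest p in obesity-prone against control are named. Further genes were named after their values were seen. A gene that this rule names is not reported here. Coordinates and promoters are from RefSeq on GRCm38.p6, and 14 of the 35 genes overlap another annotated gene. The fit was tested on simulated data. Alternatives were DESeq2 1.42.0, limma 3.58.1 on log2(FPKM + 0.5) and log2(FPKM + 0.1), other scaling factors and filters, a fit of just the groups at hand, a replicate block, a muscle covariate, and each library left out.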

Additional observations from a re-analysis of the deposited data

Results flagged for a closer look

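In the control group, Plvap stood at 30.6 CPM in replicate 4, while the other 3 control libraries lay between 20.7 and 22.0 CPM. The gap to the nearest library was 0.87 of the group's range, above Dixon's 95% critical value for 4 samples. One test was made for each of the 35 genes in the control group, and chance flags about 1 group in 20. Obesity-prone libraries had 22.6, 26.8 and 46.5 CPM of Plvap.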

How the results depend on the processing

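Dll4 rose in obesity-prone against control libraries in all 23 settings and Notch4 in 22. No gene that rose or fell and no median over the 35 genes changed direction in any setting, and the medians over the 35 genes moved by less than the spread between libraries (0.187), which is itself larger than the median of 0.12 in obesity-resistant against control libraries. The count of the 35 genes that rose in obesity-prone against control libraries was 5. It was 2 with only the 2 groups compared, 3 with the muscle covariate, 2 with limma without a filter and 14 with DESeq2. Without obesity-prone replicate 3 and control replicate 4 it was 9, and with 1 library left out it was 1 to 17. Over all genes, 1377 calls became 66, 632, 280, 2971, 2635 and 76 to 3040 in the same settings. In obesity-resistant against control libraries, the count of 0 was 1 without a filter, 2 with only the 2 groups, 3 with DESeq2, 5 without both libraries and 0 to 3 with 1 left out. Over all genes, 28 calls there became 76 without a filter, 68 with the stricter filter, 391 with only the 2 groups, 55 with the muscle covariate, 8 with limma without a filter, 1072 with DESeq2, 2212 without both libraries and 3 to 864 with 1 left out. In obesity-prone against obesity-resistant libraries, 0 became 0 to 1 for the 35 genes, and over all genes 530 with DESeq2 and 0 to 871 with 1 left out. The cause was not tested.

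Same-numbered libraries of different groups had correlations from -0.146 to 0.206, and 3 of 10 libraries were closest to their own number, so the numbers were not taken to pair them. With the replicate block, 7 of the 35 genes rose in obesity-prone against control libraries, and 1582 genes were called over all, against 0 and 382 in obesity-resistant against control libraries. At this depth, Prox1, Sele, Selp and Sphk1, with few counts per library, have wide errors.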
